A study of Mus musculus with 6 samples.

Results

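Interferon response genes and the interferon regulatory factor (IRF) family were examined in macrophages that lack complement factor H. The genes were the interferon-induced genes Mx1, Mx2 and Usp18, the cytokine gene Il15, and each Irf gene in the deposited table, namely Irf1, Irf2, Irf3, Irf4, Irf5, Irf7 and Irf8. These were 11 of the 753 genes measured, chosen by name. Macrophages had been grown from marrow flushed out of the femur and tibia, from factor H knockout mice (FHKO, 3 libraries) and from wild-type mice (control, 3 libraries). The protocol attached to all 6 samples gives an age of 8 to 10 weeks and no treatment. It names mutant and reporter mice and not the wild-type mice, and the sources used here give no strain, sex or culture conditions. Nothing in the labels says that the 3 libraries of a group came from separate mice, so p-values measure the spread between these libraries, which may be technical. Factor H's own gene was not analysed here, so expression gave no check of the genotypes.

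Type I interferons bind a receptor of the chains IFNAR1 and IFNAR2, and interferon gamma binds a receptor that contains IFNGR1. Both act through JAK kinases and STAT transcription factors, which switch on interferon-stimulated genes, among them the antiviral Mx proteins and the IRF proteins IRF1 and IRF7. IRF3, IRF5 and IRF7 act mainly before interferon is made, downstream of nucleic acid sensors and Toll-like receptors, whereas IRF4 and IRF8 are lineage factors of myeloid and lymphoid cells. In macrophages a low basal interferon signal keeps many of these genes expressed without infection.

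STAT dimers bind GAS elements, and IRF proteins bind ISRE elements. Stretches of 3 Irf promoters are shown because they hold such letters, and because the deposited table measures the RNA of these same genes. Promoters (250 bases before to 50 after the start, RefSeq, GRCm38.p6) were matched for 7 of the 11 genes, all of them Irf genes. The palindrome TTCNNNGAA, as in a GAS element, and the repeat of GAAA and GAAA with any 2 bases between them, as in an ISRE, were searched on both strands. Capitals mark the matches in stretches of 60 bases on the plus strand, from chr11:53769898-53769957 for Irf1, chr8:120736170-120736229 for Irf8 and chr8:46739495-46739554 for Irf2.
Irf1: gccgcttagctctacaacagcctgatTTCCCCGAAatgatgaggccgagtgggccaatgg
Irf8: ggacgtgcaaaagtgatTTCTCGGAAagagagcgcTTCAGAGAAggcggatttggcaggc
Irf2: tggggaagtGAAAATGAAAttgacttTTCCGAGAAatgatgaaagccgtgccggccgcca
Irf1 held 1 palindrome, starting at position -90 from the transcription start. Irf8 held 2, at -171 and -153, and Irf2 held the repeat at -241 and a palindrome at -224 that does not overlap it. Irf1 and Irf8 each had a second promoter in the table, without a match. The palindrome occurs in 8.3% and the repeat in 3.44% of the 32851 promoters of that length, and in at least 1 promoter of 9.55% and 3.99% of genes. The promoters of Irf3, Irf4, Irf5 and Irf7 held neither run of letters in this window. A match is a description of the sequence and not a measured binding site.

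Values are the authors' normalised counts, of which 99.6% were a whole count of the probe multiplied by 1 factor per library. Recovered counts summed to between 717503 and 1348062 in FHKO libraries and between 725234 and 1083621 in control libraries. Probes differ in efficiency, so levels were compared between libraries and not between genes. A log2 difference is the FHKO mean less the control mean of log2(value + 1), which understates changes of low genes. It was tested with limma over the 490 genes at 20 or more in 3 or more libraries, and all 11 genes were among these. In bulk RNA a smaller share of cells of a type and less RNA per cell cannot be told apart. All 7 macrophage markers on the panel stood above the negative control rows. Their summed level was 50272 to 52619 in FHKO and 47904 to 51351 in control libraries. Within that sum Adgre1 was at 12969 to 13172 in FHKO and 11645 to 12445 in control libraries. Csf1r was at 6668 to 7393 in FHKO and 5676 to 6044 in control libraries. Such separation, higher in FHKO, held for 22.9% of all tested genes. The groups overlapped in the other macrophage markers, and Cd68 had a log2 difference of -0.07. Of other cell types, Flt3, Xcr1 and Clec9a of dendritic cells, Ms4a1 of B cells and Ly6g, Mpo, Cxcr2 and Camp of granulocytes were at or under the limit set by the negative rows in all 6 libraries. Other markers of such cells stood above it in at least 4 libraries, namely Batf3 of conventional dendritic cells, S100a8 and Csf3r of granulocytes, and Ccr9, Klk1 and Il3ra of plasmacytoid dendritic cells. The conventional dendritic cell list summed to 70.5 to 80.8 in FHKO and 63.7 to 81.4 in control libraries. The granulocyte list summed to 283 to 375 in FHKO and 300 to 343 in control libraries, and the plasmacytoid list to 475 to 600 in FHKO and 495 to 656 in control libraries, most of it Il3ra. Ccr2, the only monocyte marker of 3 above that limit, set a monocyte sum of 263 to 539 in FHKO and 127 to 229 in control libraries. Of 7 mast cell, basophil and eosinophil markers on the panel, only Siglecf stood above that limit in at least 4 libraries. Siglecf, an eosinophil marker that macrophages can also carry, was at 172 to 212 in FHKO and 110 to 169 in control libraries. Cpa3, Ms4a2, Fcer1a, Epx and Kit of that list were at or under the limit in all 6 libraries. The part of these cell types in the values below was not tested.

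None of the 11 genes passed an adjusted p of 0.05 over all tested genes (limma, 0 of 11), against a background of 0.204% of the 490 genes. At an unadjusted p under 0.05 there were 2 of 11, Mx1 and Irf4, against 22.4% of all tested genes. On the recovered counts, edgeR called 0 of the 11 after adjustment (0.204% of all tested genes) and DESeq2 0 (5.31%). DESeq2 gave Mx1, Mx2, Usp18 and Irf4 no adjusted p and so could not call them, while its share is over all 490 genes. At an unadjusted p under 0.05 edgeR and DESeq2 each had 2, Mx1 and Irf1, against 19.4% of all tested genes in edgeR and 16.7% in DESeq2. The groups were fully separate in 3 of 11 genes, against 29.2% of all tested genes. In Mx1 and Irf5 the FHKO libraries were the higher ones (22.9% of all tested genes), and in Irf1 the lower ones (6.33%). The 11 genes had a median log2 difference of 0.18, beside 0.16 over the 490, and 72.7% of the 11 lay above 0, beside 71.8% of the 490. The shares of the 11 genes therefore lay close to those of the panel. Under median scaling, which makes the median of the tested genes equal in the 6 libraries, each gene's difference shifted by -0.29. The median of the 11 genes was then -0.11 and that of the 490 genes -0.14. Under that scaling limma called 0 of the 11 genes, against 2.86% of all tested genes, and Mx1, Irf1 and Irf8 had separate groups, 3 of 11 against 29.6%.

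**Figure D1:**
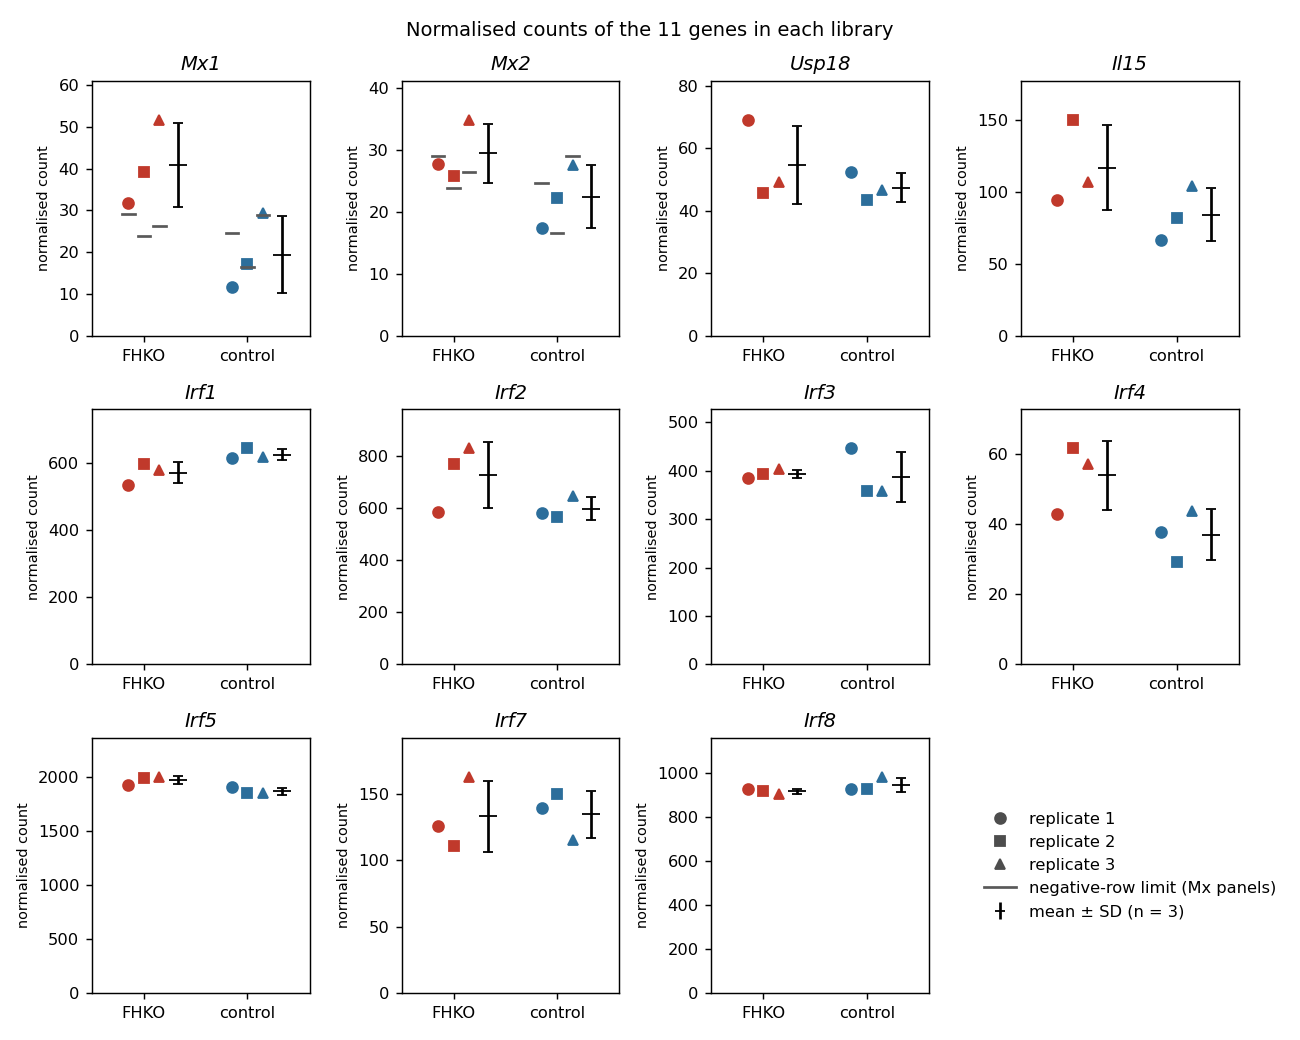
Normalised counts (vertical axes, from 0) of the 11 genes, 1 panel each, in FHKO and control libraries. Symbols are libraries by replicate number, black bars are mean ± SD (n = 3), and short grey lines in the Mx1 and Mx2 panels are each library's negative-row limit on the same scale. Mx1 lies higher and Irf1 lower in all 3 FHKO libraries than in any control library, while the Irf8 values lie within 906 to 984.

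Mx1 and Mx2 encode dynamin-like GTPases, and Mx1 protein blocks influenza virus replication in mice that carry an intact gene. Many inbred laboratory strains carry a defective Mx1 allele, and the strain here was not given. The normalised count of Mx1 was 31.8, 39.1 and 51.7 in FHKO libraries 1 to 3, against 11.6, 17.2 and 29.5 in control libraries 1 to 3. All 3 FHKO values lay above all 3 control values, but FHKO library 1 and control library 3 differed by little. The means were 40.9 ± 10.0 in FHKO and 19.4 ± 9.15 in control (SD, n = 3 each), and the log2 difference was 1.10 (standard error 0.35). As a ratio this was 2.15, with a 95% interval of 1.22 to 3.77 and an adjusted p of 0.148 (limma), and its p ranked 42 of the 490.

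Part of the Mx1 range lay at the level of the negative control rows, 8 probes without a target. Their counts before scaling averaged 10.5 to 14.8 in FHKO libraries and 8.38 to 13.5 in control libraries. A gene was called near them in a library where its count was at or under their mean plus 2 SD in that library. Mx1 had counts of 23, 47 and 46 in FHKO libraries 1 to 3, against limits of 21.0, 28.7 and 23.5. In control libraries 1 to 3 it had 8, 17 and 31, against limits of 16.9, 16.4 and 30.5. It was thus near the negative rows in control library 1 and within 1 count of the limit in the other 2 control libraries. The exact Poisson interval of the 8 counts was 3.45 to 15.8, which covers counting error only. With the negative-row mean subtracted first, the log2 difference of Mx1 was 1.86, and with a pseudocount of 20 it was 0.64. The size of the difference therefore depended on how background was handled. Its sign was the same in all 17 alternatives that tested Mx1, but many of these could not change it. The replicate block, the filters and the fit without trend reuse the same difference. Because the groups were separate, leaving out 1 library or changing the pseudocount could not turn the sign either. The other scalings, negative-row subtraction, edgeR and DESeq2 could have changed it.

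Mx2 had normalised counts of 27.6, 25.8 and 34.8 in FHKO libraries 1 to 3, against 17.5, 22.2 and 27.6 in control libraries 1 to 3. The groups overlapped, since FHKO library 2 lay below control library 3. Counts before scaling were 20, 31 and 31 in FHKO and 12, 22 and 29 in control libraries, and Mx2 was near the negative rows in 1 FHKO and 2 control libraries. The log2 difference was 0.39 (limma, 95% interval -0.14 to 0.92, adjusted p = 0.315). It was 0.23 without control library 1, 0.09 under median scaling and 0.91 with the negative-row mean subtracted first. The paralogues Mx1 and Mx2 varied alike, with a Pearson r of 0.95 over the 6 libraries, a description of libraries that share scaling and group. The probe sequences were not used here, so probe cross-reaction between the 2 genes was not tested. The tested genes most like Mx1 over the 6 libraries were Ikzf1, Terf2ip and Map2k1 (r of 0.99, 0.98 and 0.97), and for Mx2 they were Cxcl10, Mx1 and Ikzf1 (r of 0.96, 0.95 and 0.94). Here and below, such genes have the highest r among all tested genes over only 6 libraries. That choice favours high values, so they are a description only.

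**Figure D2:**
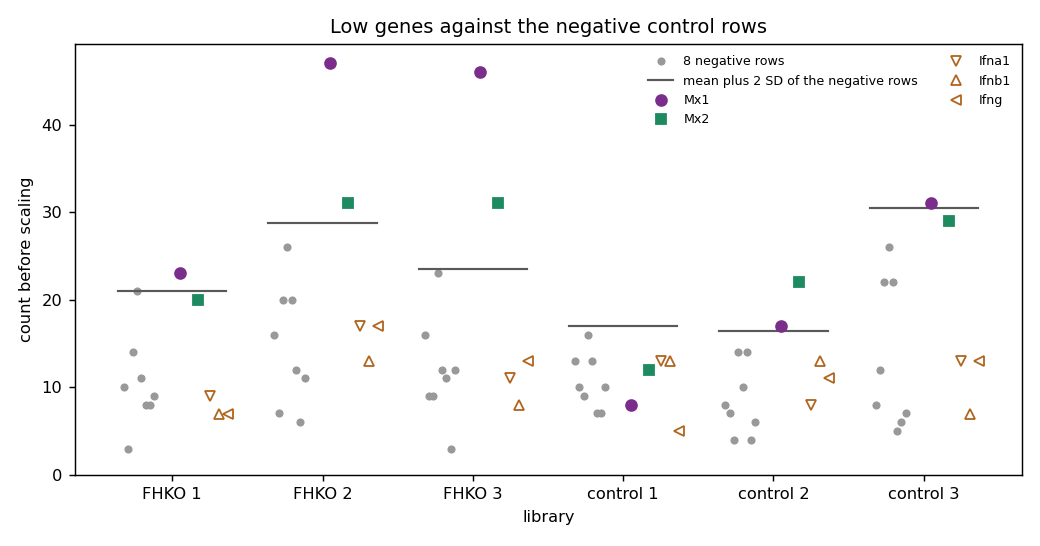
Counts before scaling (vertical axis) in the 3 FHKO and 3 control libraries for the 8 negative rows (grey dots), Mx1, Mx2 and 3 interferon genes. Horizontal lines mark the mean plus 2 SD of the negative rows of that library. Mx1 reaches 46 and 47 counts in FHKO libraries 3 and 2 and 8 counts in control library 1, and Ifna1, Ifnb1 and Ifng lie at or under 17 counts in all 6 libraries.

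Usp18 encodes a protease that removes ISG15 from proteins and also blocks signalling at the type I interferon receptor. Its normalised count was 69.1, 45.8 and 49.4 in FHKO libraries 1 to 3, against 52.4, 43.5 and 46.6 in control libraries 1 to 3. FHKO library 1 was highest and the other FHKO values fell inside the control range. The log2 difference was 0.18 (limma, 95% interval -0.27 to 0.64, adjusted p = 0.576), and it was -0.11 under median scaling. Without FHKO library 1 it was 0.0063. Usp18 did not follow the Mx genes, with a Pearson r of 0.07 to Mx1 and 0.09 to Mx2 over the 6 libraries. The genes most like it were Sema4b, Col4a2 and H2-DMb2 (r of 0.97, 0.95 and 0.87).

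Il15 encodes a cytokine that macrophages present to NK and memory T cells on the receptor chain IL15RA. Il15 was at 94.0, 150 and 107 in FHKO libraries 1 to 3, against 66.9, 81.9 and 104 in control libraries 1 to 3. FHKO library 2, the one with the highest summed count, was highest, and FHKO library 1 lay below control library 3. The means were 117 ± 29.3 in FHKO and 84.2 ± 18.5 in control (SD, n = 3 each), a log2 difference of 0.46 (limma, 95% interval -0.08 to 1.0, adjusted p = 0.271). It was 0.27 without FHKO library 2, 0.31 without control library 1, and 0.17 under median scaling. The genes most like Il15 were Btk, Itgb1 and Itga4 (r of 0.99 each). These genes also varied with the summed count of the library (r of 0.82, 0.77 and 0.74). Shared regulation with Il15 was not tested. Il15ra was near the negative rows in 5 of 6 libraries and was not tested, at 19.4, 19.1 and 29.2 in FHKO libraries 1 to 3 and 14.5, 14.2 and 17.1 in control libraries 1 to 3. Of the 3 tested genes of IL-15 signalling (Jak3, Stat5a and Stat5b), 0 passed limma's threshold, and their log2 differences were 0.26, 0.19 and 0.10, each below 0 under median scaling (-0.03, -0.10 and -0.20).

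IRF1 is an activator induced by interferon gamma, and IRF2 binds the same sites and can repress them. Irf1 was at 536, 597 and 582 in FHKO libraries 1 to 3, against 617, 645 and 618 in control libraries 1 to 3. All FHKO values lay below all control values. The means were 572 ± 31.5 in FHKO and 626 ± 15.9 in control (SD, n = 3 each), a log2 difference of -0.13 (limma, 95% interval -0.34 to 0.08, adjusted p = 0.379). Irf1 was lower in FHKO under all 18 alternatives, many of which could not change its sign for the reasons given for Mx1. Under median scaling the difference was -0.43, with an adjusted p of 0.0846 (limma). Irf2 was at 586, 768 and 829 in FHKO libraries 1 to 3, against 580, 566 and 646 in control libraries 1 to 3. FHKO library 1 lay inside the control range and the other FHKO libraries above it, with a log2 difference of 0.27 (limma, 95% interval -0.07 to 0.61, adjusted p = 0.301). This turned to -0.02 under median scaling. The genes most like Irf1 over the 6 libraries were Tspan7, S100a8 and Mmp19 (r of 0.96, 0.94 and 0.92), and for Irf2 they were Pdgfa, Csf2ra and Bid (r of 0.99, 0.98 and 0.97).

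A ratio of 2 genes within a library does not move with the scaling factor. The ratio of Irf2 to Irf1 was 1.09, 1.29 and 1.42 in FHKO libraries 1 to 3, against 0.94, 0.88 and 1.05 in control libraries 1 to 3. The groups did not overlap, and the mean log2 ratio was higher in FHKO by 0.40. The corresponding ratio of Irf4 to Irf8 was 0.046, 0.067 and 0.063 in FHKO, against 0.041, 0.032 and 0.044 in control libraries, also without overlap, and higher by 0.59. These pairs were chosen after their values had been seen and carry no test. Irf2 and Irf4 had positive log2 differences, and Irf1 and Irf8 negative ones. A higher mean ratio in FHKO therefore followed from the choice of pairs. The share of other gene pairs without overlap was not determined, and a ratio does not say which gene differed.

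**Figure D3:**
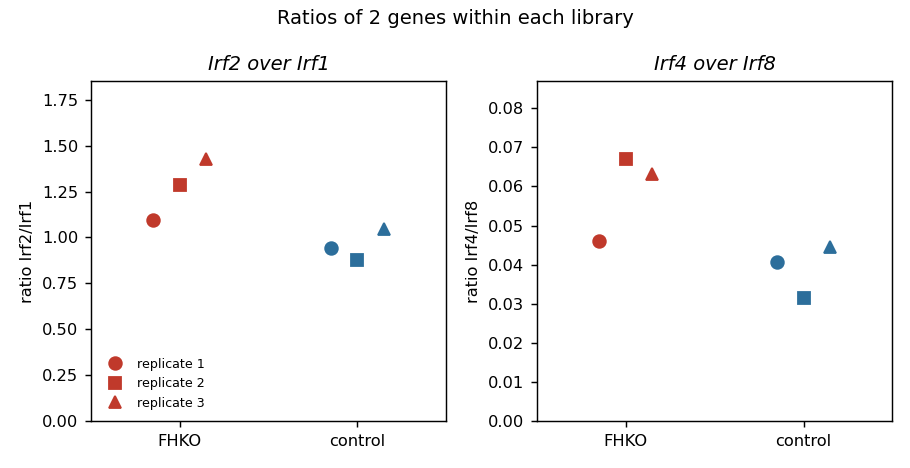
Ratio of normalised counts (vertical axes, from 0) of Irf2 over Irf1 and of Irf4 over Irf8 in each FHKO and control library, with symbols for replicate number. The FHKO ratios of Irf2 to Irf1 run from 1.09 to 1.42 and the control ratios from 0.88 to 1.05.

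IRF4 takes part in alternative activation of macrophages and in dendritic cell development, and IRF8 is needed for the monocyte and macrophage lineage. Irf4 was at 42.8, 61.6 and 57.3 in FHKO libraries 1 to 3, against 37.8, 29.3 and 43.8 in control libraries 1 to 3. The groups overlapped by a narrow margin, with FHKO library 1 just below control library 3. The means were 53.9 ± 9.82 in FHKO and 37.0 ± 7.28 in control (SD, n = 3 each), a log2 difference of 0.53 (limma, 95% interval 0.03 to 1.04, adjusted p = 0.210). Irf4 stood above the negative rows in all 6 libraries, at the closest 1.47 times their limit. Without any 1 library its log2 difference was 0.38 to 0.69. It was 0.24 under median scaling (limma, 95% interval -0.22 to 0.70). With the negative-row mean subtracted first it was 0.67 (limma, 95% interval -0.02 to 1.37). With the replicate block the interval for Irf4 was -0.03 to 1.10. Its most similar genes were Rnase2a, Map3k4 and S100a10 (r of 0.96, 0.95 and 0.94).

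Irf8 was at 929, 921 and 906 in FHKO libraries 1 to 3, against 929, 929 and 984 in control libraries 1 to 3. The values lay close together and the groups overlapped at 929, and the log2 difference was -0.04 (limma, 95% interval -0.23 to 0.14, adjusted p = 0.751). In the deposited scaling that interval leaves out changes of Irf8 beyond 0.851 to 1.10 times the control level. The spread of Irf8, 1.25% of the mean in FHKO and 3.37% in control, was below counting noise (3.41% and 3.40%). The interval does not rest on this spread alone. It uses limma's standard error of 0.080, for which eBayes also draws on the spread of other genes. Under median scaling the groups separated, at -0.34 (limma, 95% interval -0.62 to -0.05, adjusted p = 0.126). They also separated, with FHKO lower, after quantile normalisation (-0.22), by edgeR (-0.17) and by DESeq2 (-0.18). The genes set around IRF4 and IRF8 as partners or targets had 11 tested members, of which 0 passed limma's threshold, while 3 had an unadjusted p under 0.05, each above 0, against 22.4% of all tested genes. The transcription factor gene Klf4 was at 167 to 242 in FHKO and 102 to 152 in control libraries, with a log2 difference of 0.81 (limma, adjusted p = 0.138; DESeq2, adjusted p = 0.033). Under median scaling that difference was 0.51. Id2 and Bcl6, which encode regulators of transcription, had 0.68 and 0.24 (limma, adjusted p of 0.148 and 0.197), or 0.38 and -0.06 under median scaling. Batf3, a dendritic cell factor that works with IRF8, had 0.01, and the alternative activation genes Arg1 and Retnla were at or under the negative-row limit in all 6 libraries. Mrc1, the mannose receptor gene of that same group, was at 703 to 1023 in FHKO and 595 to 819 in control libraries (log2 difference 0.13). Chil3 was near the negative rows in 5 libraries and was not tested, at 9.99 to 11.1 in FHKO and 19.2 to 21.9 in control libraries.

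IRF3, IRF5 and IRF7 drive interferon and cytokine genes after pathogen sensing. Irf3 was at 386, 394 and 403 in FHKO libraries 1 to 3, against 446, 358 and 358 in control libraries 1 to 3. The FHKO values fell between the control values, and the log2 difference was 0.03 (limma, 95% interval -0.25 to 0.31, adjusted p = 0.886). Irf5 was at 1929, 1995 and 2005 in FHKO, against 1910, 1855 and 1854 in control libraries. The groups did not overlap, but the log2 difference was 0.08 (limma, 95% interval -0.09 to 0.25, adjusted p = 0.519), and it turned to -0.22 under median scaling and to -0.05 by edgeR. The spread of Irf5 within each group, 2.08% of the mean in FHKO and 1.69% in control, was smaller than counting noise alone gives (2.32% and 2.43%), so it understates the uncertainty. Irf7, itself induced by type I interferon, was at 126, 111 and 163 in FHKO, against 140, 150 and 115 in control libraries. Highest and lowest Irf7 values were both in FHKO, and the log2 difference was -0.03 (limma, 95% interval -0.45 to 0.40, adjusted p = 0.944). Over the 6 libraries the gene most like Irf7 was Polr2a (r of 0.86), and the one most like Irf3 was Vsir (r of 0.97).

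**Figure D4:**
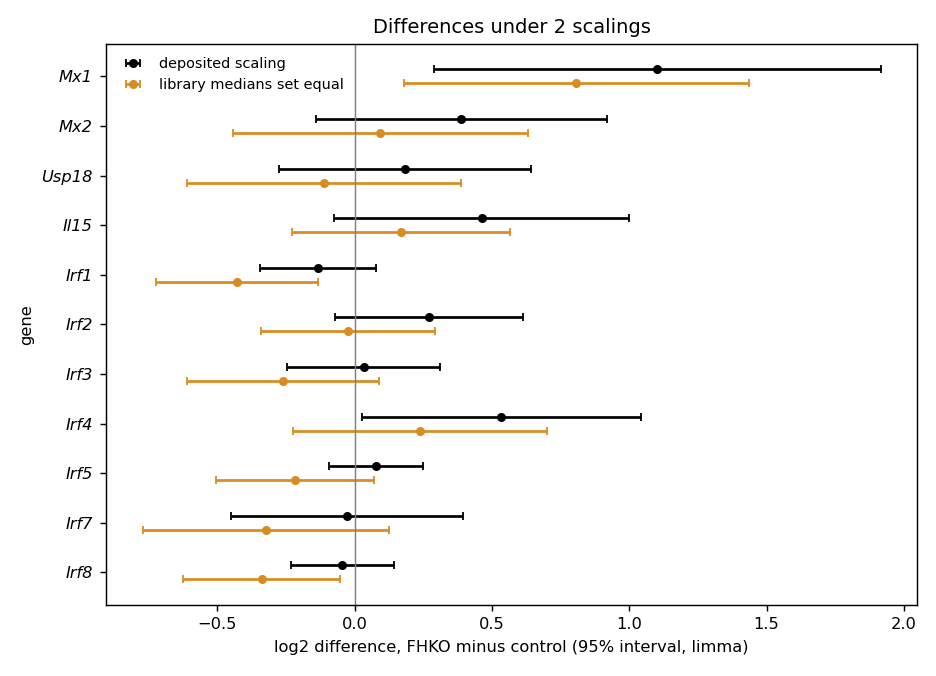
Log2 difference, FHKO minus control, of the 11 genes (horizontal axis) with 95% limma intervals, in the deposited scaling (black) and under median scaling (orange). Mx1 lies furthest above 0 in both scalings, at 1.10 and 0.81, and Irf1 lies below 0 in both, at -0.13 and -0.43.

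Genes around these 11 were taken from lists of the interferon pathway. The interferon genes Ifna1, Ifnb1 and Ifng were at or under the negative-row limit in all 6 libraries and were not tested. Of 11 other interferon-stimulated genes on the panel 9 were tested, and 0 passed limma's threshold, with 0 at an unadjusted p under 0.05. Of these 9, 6 lay above 0 in the deposited scaling and 1, Cxcl10, under median scaling, beside 71.8% and 30.8% of all tested genes. Isg15, which encodes a ubiquitin-like protein strongly induced by interferon, was at 344, 273 and 348 in FHKO libraries 1 to 3, against 324, 276 and 292 in control libraries 1 to 3. These groups overlapped, and the log2 difference was 0.11 (limma, adjusted p = 0.636). Cxcl10, a chemokine gene induced by interferon, was at 55.3, 43.3 and 66.2 in FHKO, against 24.7, 43.5 and 49.5 in control libraries, a log2 difference of 0.51 (limma, adjusted p = 0.310). The sialic acid receptor gene Siglec1 did not overlap between groups, at 207 to 228 in FHKO and 175 to 196 in control libraries, with a log2 difference of 0.24 (limma, adjusted p = 0.228), or -0.06 under median scaling. Psmb8, a subunit of the immunoproteasome, had -0.11 (limma, adjusted p = 0.454), and Cxcl9 and Cxcl11 were at or under the negative-row limit in all 6 libraries.

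Of 7 interferon receptor and JAK-STAT genes on the panel 6 were tested, and 0 passed limma's threshold. Groups were separate for the 3 receptor chains and Stat3, 4 of 6 genes and all higher in FHKO, against 22.9% of all tested genes. Ifngr1 was at 2215, 2533 and 2494 in FHKO libraries 1 to 3, against 1729, 1990 and 2053 in control libraries 1 to 3, a log2 difference of 0.33 (limma, adjusted p = 0.148). Ifnar2 was at 1055, 1100 and 1206 in FHKO, against 889, 1021 and 950 in control libraries, a log2 difference of 0.23 (limma, adjusted p = 0.213). Ifnar1 was at 1345, 1343 and 1348 in FHKO, against 1056, 1210 and 1295 in control libraries, a log2 difference of 0.19 (limma, adjusted p = 0.293). Under median scaling the differences of Ifngr1, Ifnar2 and Ifnar1 were 0.03, -0.06 and -0.11. Socs1, an inhibitor of JAK kinases, had a log2 difference of -0.12 (limma, adjusted p = 0.750).

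Of 9 tested sensors and adaptors that lie upstream of IRF3, IRF5 and IRF7, 0 passed limma's threshold and 7 lay above 0, or 4 under median scaling, beside 71.8% and 30.8% of all tested genes. Tlr4, the lipopolysaccharide receptor, was at 395 to 842 in FHKO and 159 to 377 in control libraries, a log2 difference of 1.08 (limma, adjusted p = 0.169; DESeq2, adjusted p = 0.051). The RNA sensor gene Tlr8 had 0.57 and the DNA sensor gene Tlr9 had 0.31 (limma, adjusted p of 0.288 and 0.217), both with overlapping groups. Under median scaling Tlr4, Tlr8 and Tlr9 had 0.79, 0.27 and 0.01. Tlr8 was highest in FHKO library 2, at 1899, which was also the highest library for Il15, Irf4 and Tlr4. Tmem173, which encodes the DNA-sensing adaptor STING, was at 220, 266 and 226 in FHKO libraries 1 to 3, against 256, 227 and 228 in control libraries 1 to 3, and its log2 difference was -0.005 (limma, adjusted p = 0.982).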

How the data were processed

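RNA was measured in 3 FHKO and 3 control libraries. The deposited table holds a normalised signal for 753 genes and whole counts for 14 control rows. The authors' software, platform and genome build are not given in the sources used here. By the values, 99.6% of the deposited gene values were whole multiples, within 0.0051, of 1 step per library, and values of exactly 1 that were no multiple were taken as 0 counts. Less firmly recovered are the counts of control library 2, whose step of 1.01 is close to 1. So are those of FHKO library 2 and control library 3, with 2 and 3 values at that floor. This bears on edgeR, DESeq2 and the counts set against the negative rows. Symbols matched RefSeq (GRCm38.p6) directly for 743 genes and all 11 described.

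Genes at 20 or more in 3 or more libraries were kept (490). log2(value + 1) was fitted with limma 3.58.1 in R 4.3.3 (lmFit, eBayes with trend), two-sided, with Benjamini-Hochberg adjustment over all 490. Alternatives were the replicate block, each library left out, median and quantile scaling, other filters and pseudocounts, no trend, negative-row subtraction, edgeR 4.0.16 (quasi-likelihood, TMM) and DESeq2 1.42.0. Differences relative to the median gene and ratios within libraries were added after seeing the data. limma was tested on simulated data. Counts of any 2 replicates differed beyond sampling noise (reduced chi-square, 11.1 to 38.1).

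All 11 genes were named, with the 3 tested genes of smallest p per pathway list plus a few set by name; others named were chosen after their values were seen. Some items that this rule sets are not reported here. Members and lists were chosen with earlier results of these data known. Figures used matplotlib 3.10.9.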

Additional observations from a re-analysis of the deposited data

How the results depend on the processing

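No gene of the 11 passed an adjusted p of 0.05 under any of the 18 alternatives that tested it, and DESeq2 gave Mx1, Mx2, Usp18 and Irf4 no adjusted p. The lowest adjusted p were 0.0846 for Irf1 with library medians set equal and 0.0910 for Mx1 without control library 3 (limma). Mx1, Mx2, Il15, Irf1, Irf4 and Irf8 kept their sign under each alternative, Mx1 between 0.64 and 1.86. The replicate block, the filters and the fit without trend could not change a sign. For Mx1 and Irf1, whose groups were separate, leaving out 1 library or changing the pseudocount could not do so either. With library medians set equal Usp18 turned to -0.11, Irf2 to -0.024, Irf3 to -0.26 and Irf5 to -0.22. Irf3 was -0.23 after quantile normalisation, and Irf3 and Irf5 were -0.10 and -0.047 by edgeR and -0.11 and -0.058 by DESeq2. Relative to the median gene they were -0.13 and -0.081. Leaving out 1 library gave Irf3 -0.021 to 0.14 and Irf7 -0.18 to 0.094. The cause of these turns was not tested. The number of the 11 genes without overlap, 3 in all, was 7 without FHKO library 1 and 7 without control library 3, where 43.3% and 50.2% of all tested genes had separate groups, and 3 to 7 over the 6 such fits, in which fewer values are compared. Over all 490 genes the count called, 1 in the deposited scaling, was 14 with library medians set equal (4 higher, 10 lower) and 26 by DESeq2. It was 0 to 3 with 1 library left out: 3 without FHKO library 2 and 0 without any other. With the replicate number as a block it was 0, and the block changed no call among the 11. Over all tested genes the deviations of same-numbered libraries had r of 0.26, -0.03 and -0.29. With 3 libraries per group these values cannot show whether the numbers mark pairs. Mx1 rose from library 1 to library 3 in both groups. With the block its standard error was 0.22 instead of 0.35 (limma, adjusted p = 0.0991), while that of Irf1 was 0.11 instead of 0.09. Mx1 and Mx2 are limited by background. With the highest negative row as limit, Mx1 was near it in 1 library and Mx2 in 2, and no other of the 11 genes in any.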
